A study of Mus musculus with 4 samples.

Results

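The genes described here were 7 core components of the hedgehog (HH) pathway, chosen by name from textbook knowledge of the pathway. Earlier results of these data were known when these genes were chosen. They were the receptors *Ptch1* and *Hhip*, the transducers *Smo* and *Sufu*, and the transcription factors *Gli1*, *Gli2* and *Gli3*, out of 46983 genes in the deposited tables. RNA-seq was carried out on larynx tissue from mouse embryos at E10.5 (32 to 35 somites), in 2 Shh-/- pools and 2 WT pools of 3 larynxes each. The mutant pools carried the germline null allele Shhtm1amc, kept on a Swiss Webster background, and the WT embryos were Swiss Webster. The sample labels write the allele as Shh+/-, while the series design and the paper describe the mutant tissue as Shh-/-, and the latter name was used. No Cre driver or agent was involved, and each library mixed 3 embryos. Because *Shh* was lost from the whole embryo, the tissue had lacked the ligand SHH since before the larynx formed. The question addressed was how the expression of the pathway's own components differed when SHH, 1 of its ligands, was missing.

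HH ligands bind Patched receptors, which otherwise hold the transmembrane protein Smoothened inactive. Active Smoothened, acting at the primary cilium, releases the Gli transcription factors from Suppressor of Fused, so that Gli2 and Gli3 are no longer processed to repressors and can activate target genes. *Ptch1*, *Hhip* and *Gli1* are themselves target genes of the pathway in many tissues, and in the foregut the ligand comes from the epithelium and signals mainly to the surrounding mesenchyme.

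Levels are given in TPM, the abundance of transcripts scaled for their length and for the size of the library, and differences as the log2 fold change (log2FC) of Shh-/- minus WT on log2(TPM + 1), with the standard error (SE) from limma and a p adjusted over all 16972 genes tested. A gene was called at an adjusted p under 0.05. By this rule 28 genes, 0.165% of those tested, were lower in the Shh-/- pools, and 95 genes, 0.56%, were higher. *Ptch1* and *Hhip* were among the 28, and none of the other 5 members was called. All 7 members passed the filter of a mean TPM of at least 1, *Hhip* through its WT level alone. The groups did not overlap for any member: each mutant pool was under each WT pool for *Ptch1*, *Hhip* and *Gli1*, as for 22.7% of all genes tested, and over each WT pool for *Gli2*, *Gli3*, *Smo* and *Sufu*, as for 38% of all genes. The median log2FC over all genes tested was 0.08.

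The libraries held an estimated 1372 to 3128 megabases of alignment, and 16432 to 17117 genes reached 1 TPM. The first Shh-/- pool was the shallowest. *Shh* itself was listed at 10.4 and 10.8 TPM in mutant pools, against 23.7 and 42.1 TPM in WT (log2FC -1.49, SE 0.28, limma adjusted p = 0.0895), a value for the whole gene that does not separate the removed part from the rest. The WT pool numbered 4 stood apart in liver transcripts, with *Afp* at 2358 TPM against 0.88 to 17.4 TPM in the other 3 pools. Foregut epithelium markers were present in every pool, at a summed 598 to 686 TPM over 9 of 9 genes. The remaining marker lists are given at the end.

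The 5′ flanks of the called members are shown because both genes lay far lower in the Shh-/- pools. Each is the 250 bases before the RefSeq start site on GRCm38.p6 (mm10), read 5′ to 3′ on the gene's strand, with CG dinucleotides in capitals. *Ptch1* is at chr13:63565736-63565985 on the minus strand, inside the span of the gene, which has several annotated starts, and *Hhip* is at chr8:80058009-80058258 on the minus strand.
Ptch1: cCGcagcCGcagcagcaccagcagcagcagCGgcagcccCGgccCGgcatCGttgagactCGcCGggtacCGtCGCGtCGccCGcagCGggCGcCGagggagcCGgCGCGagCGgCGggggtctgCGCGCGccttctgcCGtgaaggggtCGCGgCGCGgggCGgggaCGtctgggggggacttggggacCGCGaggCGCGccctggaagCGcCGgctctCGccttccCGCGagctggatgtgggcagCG
Hhip: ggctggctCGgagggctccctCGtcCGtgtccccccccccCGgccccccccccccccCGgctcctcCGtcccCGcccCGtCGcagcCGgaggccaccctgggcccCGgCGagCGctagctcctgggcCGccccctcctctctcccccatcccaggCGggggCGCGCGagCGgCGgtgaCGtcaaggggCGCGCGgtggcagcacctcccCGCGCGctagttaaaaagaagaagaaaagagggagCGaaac
The *Ptch1* flank held 41 CG dinucleotides and 78.4% G or C, and the *Hhip* flank held 28 and 76%, against medians of 6 and 52.4% over all 32851 RefSeq promoters. Among the other members, *Gli3* had 34, *Gli2* 22, *Smo* 15 and *Sufu* 8, and *Gli1* had no entry in the table. The GLI consensus GACCACCCA was searched on both strands (TGGGTGGTC on the other) from 250 bases before to 50 bases after each start. No match with 0 or 1 mismatch was found for any of the 6 members with an entry, while 0.253% of all promoters held the exact motif and 6.74% held it with up to 1 mismatch. These letters may lie outside the windows, and nothing about Gli binding follows from their absence.

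*Ptch1*, which encodes the main receptor for SHH, was listed at 12.9 and 13.8 TPM in mutant pools, against 57.8 and 55.1 TPM in WT. The pools of each genotype lay close together and the groups were far apart. The means were 13.4 ± 0.646 TPM for the mutant and 56.4 ± 1.89 TPM for WT (SD, n = 2 pools each), which is 4.21-fold lower without *Shh*. The log2FC was -2.0 (SE 0.12, 95% confidence interval -2.30 to -1.69, limma adjusted p = 0.0319), and 74 of the 16972 genes tested had a lower value. In bulk tissue, fewer cells that express *Ptch1* and less *Ptch1* RNA per cell cannot be told apart, and the same holds for every gene below. The gene lies on chr13 from 63508328 to 63573598 on the minus strand, and its overlapping gene *A930032L01Rik* did not exceed 1.15 TPM in any library.

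*Hhip* encodes a membrane protein that binds HH ligands and limits their action. It was at 0.149 and 0.635 TPM in mutant pools, against 11.3 and 15.2 TPM in WT. Transcripts were close to absent from both mutant pools and well detected in both WT pools. The means were 0.392 ± 0.343 TPM and 13.3 ± 2.82 TPM (SD, n = 2 each), a 33.8-fold difference, the widest among the members. On the log2(TPM + 1) scale, which understates the change of a gene this low, the log2FC was -3.36 (SE 0.27, 95% confidence interval -4.07 to -2.66, limma adjusted p = 0.0323), and 13 genes had a lower value. Neither call held when any 1 pool was left out or when no filter was set on TPM, and that of *Hhip* also ended with a pseudocount of 0.1 (limma adjusted p = 0.0598). The *Hhip* gene lies on chr8 from 79966115 to 80058006 on the minus strand.

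**Figure D1:**
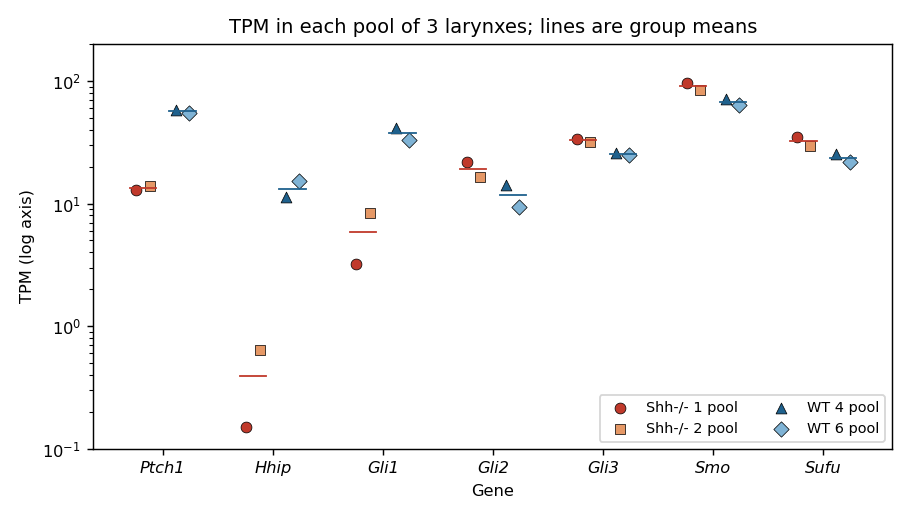
TPM of the 7 members in each library on a logarithmic axis, 1 point per pool, with a colour and symbol for each pool and a line at each group mean. *Ptch1*, *Hhip* and *Gli1* sit lower in both Shh-/- pools, with *Hhip* under 0.64 TPM there, while *Smo*, *Sufu*, *Gli2* and *Gli3* sit slightly higher.

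The size of the *Hhip* difference depended on the measure. The deposited tables give the mean read coverage of each gene beside TPM, and for *Hhip* it was 0.0919 and 0.232 reads per base in mutant pools, against 10.2 and 15.4 in WT. Scaled to the library's aligned bases, coverage was 0.0670 and 0.0743 per aligned gigabase in Shh-/- and 3.59 and 5.18 in WT, 62.1-fold lower in the mutant. On this scale the mutant pools were nearly equal, whereas their TPM values differed 4.25-fold. The deposited FPKM of *Hhip* was 1.07, 1.57 and 1.47 times the scaled coverage in the first Shh-/- pool and the WT pools, but 4.25 times in the second Shh-/- pool. For *Ptch1* this factor was between 1.23 and 1.33 in all 4 libraries, and the scaled coverage (4.65 and 5.48 in Shh-/-, 23.4 and 21.1 in WT) gave a 4.39-fold difference, close to that in TPM.

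*Gli1*, an activator of the pathway and its most commonly used readout, was at 3.20 and 8.45 TPM in mutant pools, against 41.7 and 32.9 TPM in WT. The groups did not overlap, but the mutant pools differed 2.64-fold from each other. The means were 5.82 ± 3.71 TPM and 37.3 ± 6.21 TPM (SD, n = 2 each), 6.40-fold lower in Shh-/-. The log2FC was -2.59 (SE 0.41, 95% confidence interval -3.64 to -1.54), larger than that of *Ptch1*, and 33 genes had a lower value, yet its SE was larger than that of *Ptch1* and it was not called (limma adjusted p = 0.0715). At an adjusted p under 0.10 *Gli1* was the third member called, among 188 genes, or 1.11%, that were lower by that rule. The FPKM of *Gli1* matched its scaled coverage in every library (a factor of 1.0), and coverage likewise separated the mutant pools, at 1.54 and 4.2 against 20.9 and 16.4 per aligned gigabase in WT. The gene lies on chr10 from 127329889 to 127341589 on the minus strand.

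*Gli2*, the main activator among the Gli factors in the mouse, was at 21.9 and 16.5 TPM in mutant pools, against 14.1 and 9.45 TPM in WT. The lowest mutant pool lay only slightly above the highest WT pool. The log2FC was 0.67 (SE 0.25, 95% confidence interval 0.04 to 1.3, limma adjusted p = 0.188), and 91.2% of all genes had a lower value. *Gli3*, the factor that acts mainly as a repressor, was at 33.9 and 32.0 TPM in mutant pools, against 25.7 and 24.8 TPM in WT. Replicates agreed closely for this gene, and the difference was small, with a log2FC of 0.37 (SE 0.12, 95% confidence interval 0.07 to 0.67, limma adjusted p = 0.155). *Gli2* lies on chr1 from 118834132 to 119053619 on the minus strand and *Gli3* on chr13 from 15463235 to 15730026 on the plus strand.

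*Smo*, the transducer that Patched holds inactive, was the most abundant member by TPM in all 4 libraries, at 95.2 and 84.9 TPM in mutant pools, against 70.8 and 63.8 TPM in WT. *Sufu*, which binds Gli proteins and restrains them, was at 35.2 and 29.4 TPM in mutant pools, against 25.2 and 21.8 TPM in WT. Both genes had every mutant pool above every WT pool, and neither was called. The log2FC was 0.41 for *Smo* (SE 0.12, 95% confidence interval 0.11 to 0.72, limma adjusted p = 0.14) and 0.44 for *Sufu* (SE 0.15, 95% confidence interval 0.05 to 0.83, limma adjusted p = 0.174). *Smo* lies on chr6 from 29735503 to 29761365 and *Sufu* on chr19 from 46396896 to 46488804, both on the plus strand.

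**Figure D2:**
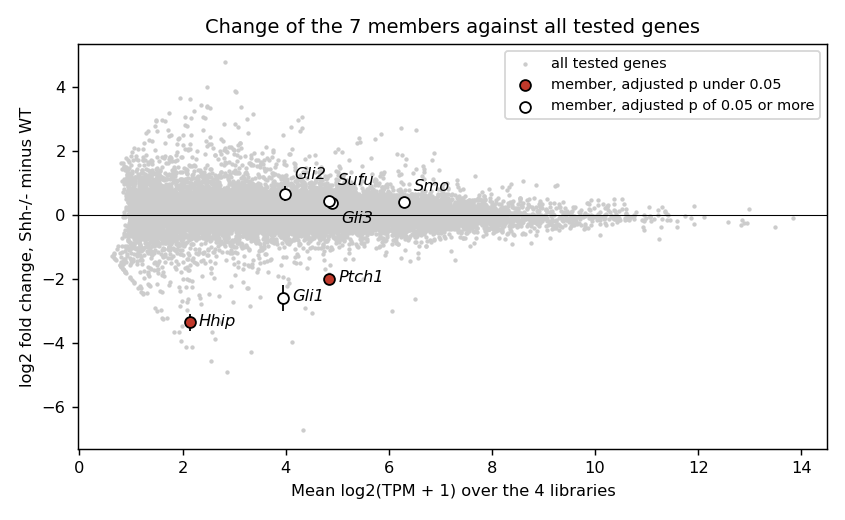
Log2 fold change (Shh-/- minus WT) against the mean log2(TPM + 1) over the 4 libraries, for all 16972 genes tested in grey and the 7 members as labelled points with bars of 1 SE, filled where the limma adjusted p was under 0.05. *Hhip*, *Gli1* and *Ptch1* lie below most genes of like level, at -3.36 to -2.0, and *Gli3*, *Smo*, *Sufu* and *Gli2* lie within the cloud, at 0.37 to 0.67.

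The size of the 4 small positive values depended on how the data were scaled and corrected. Relative to the median of all genes, the log2FC was 0.29 for *Gli3*, 0.33 for *Smo*, 0.36 for *Sufu* and 0.59 for *Gli2*. All 7 members had an unadjusted limma p under 0.05, as did 24.8% of all genes, and after median centring of the libraries 4 members did. A correction for transcript length and GC content, added after the data had been seen, brought *Smo* to -0.00873 and *Sufu* to 0.06, and left *Gli3* at 0.23 and *Gli2* at 0.26. Under it the log2FC was -2.09 for *Ptch1*, -3.23 for *Hhip* and -3.05 for *Gli1*. The signs of the 3 target genes thus held under every scaling tried and under that correction. The sign of *Smo* changed under the correction only.

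**Figure D3:**
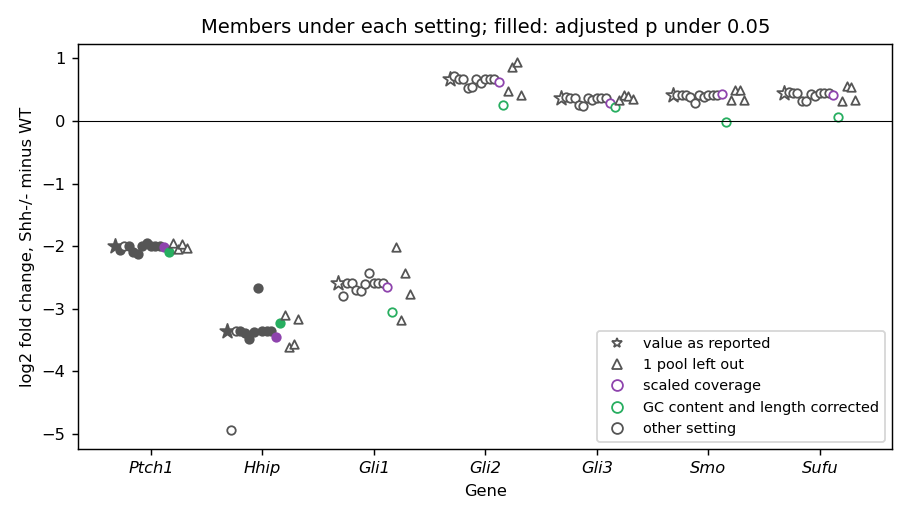
Log2 fold change of the 7 members (Shh-/- minus WT) under each alternative way of processing, 1 point per alternative, with a star for the value as reported, triangles where 1 pool was left out, and filled points where the limma adjusted p was under 0.05. *Ptch1*, *Hhip* and *Gli1* stay at -1.95 or lower in every setting, whereas *Smo* reaches -0.00873 and *Sufu* 0.06 after correction for GC content and length.

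The balance among the members differed within each library, a comparison that needs no scaling between libraries. *Gli1* made up 5.43 and 14.8% of the summed *Gli1*, *Gli2* and *Gli3* TPM in mutant pools, against 51.2 and 49.0% in WT. The *Gli3* share was 57.5 and 56.2% in mutant pools, against 31.5 and 37.0% in WT, and that of *Gli2* was 37.1 and 29.0%, against 17.3 and 14.1%. By TPM *Gli1* was thus the largest share in both WT pools and the smallest in both mutant pools. In scaled coverage the *Gli1* share was 16.5 and 36.9% against 77.4 and 75.1%, and in the second mutant pool it was above the 18.1% of *Gli2*, so the rank of *Gli1* there depends on the measure while the direction of its difference does not. None of these comparisons can go below a two-sided exact permutation p of 0.333 with 2 pools against 2, and each of the 3 shares gave that value. Because the shares of a library add up to the whole, they are not separate results. A lower *Gli1* share by itself raises the others.

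**Figure D4:**
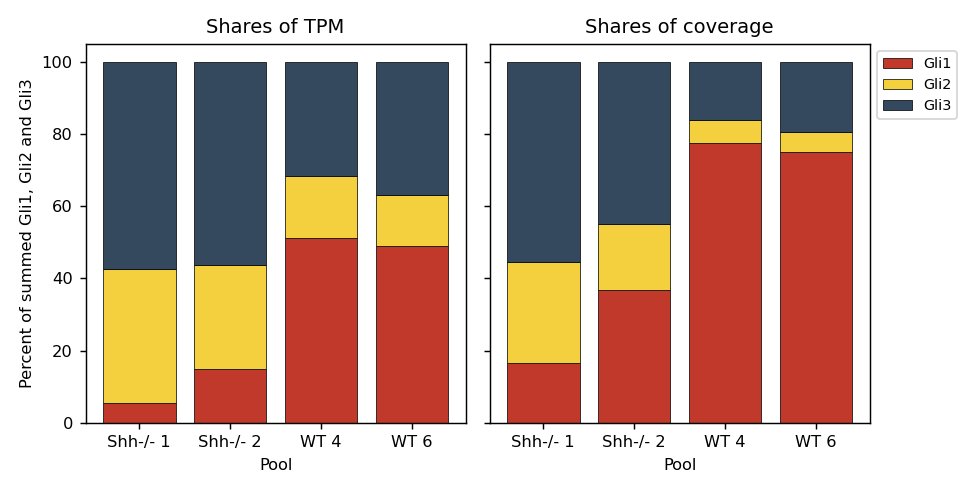
Share of *Gli1*, *Gli2* and *Gli3* in their summed TPM, in percent, as stacked bars for each library, and in the right panel the same shares of scaled coverage. By TPM *Gli1* takes 5.43 and 14.8% in mutant pools, against 51.2 and 49.0% in WT, and *Gli3* takes over 56% in both Shh-/- pools.

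The log2 ratio of *Gli1* to *Gli3* was -3.40 and -1.92 in mutant pools, against 0.70 and 0.41 in WT (exact permutation p = 0.333). The log2 ratio of receptor to transducer, *Ptch1* to *Smo*, was -2.88 and -2.62 against -0.29 and -0.21 (exact permutation p = 0.333). The log2 ratio of *Hhip* to *Ptch1* was lower in both mutant pools, at -6.44 and -4.45 in Shh-/- and -2.36 and -1.85 in WT, or -6.12 and -6.21 against -2.71 and -2.02 in scaled coverage (exact permutation p = 0.333 on either scale). The *Ptch1* to *Gli1* ratio of 2.01 and 0.71 in Shh-/- overlapped the 0.47 and 0.74 in WT by TPM (exact permutation p = 0.667), whereas by scaled coverage 1.60 and 0.38 lay above 0.17 and 0.36 (exact permutation p = 0.333). The *Gli2* to *Gli3* ratio overlapped as well, at -0.63 and -0.96 against -0.87 and -1.39 (exact permutation p = 0.667). *Sufu* relative to the summed Gli genes, a sum that includes *Gli1*, was at -0.75 and -0.95 in Shh-/- and -1.69 and -1.62 in WT (exact permutation p = 0.333).

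Ranked by TPM, which is per transcript length, the order in WT was *Smo*, *Ptch1*, *Gli1*, *Gli3*, *Sufu*, *Hhip* and *Gli2*, with *Gli3* and *Sufu* overlapping, as did *Hhip* and *Gli2*. In the Shh-/- pools the order was *Smo*, *Gli3*, *Sufu*, *Gli2*, *Ptch1*, *Gli1* and *Hhip*, with only *Gli3* and *Sufu* overlapping. By TPM *Ptch1* and *Gli1* ranked above *Gli2* in WT and below it in Shh-/-, but by scaled coverage the Shh-/- order was *Smo*, *Gli3*, *Ptch1*, *Sufu*, *Gli1*, *Gli2* and *Hhip*, with *Ptch1* above *Gli2* there and *Gli1* overlapping it. By scaled coverage *Ptch1* and *Smo* overlapped in WT (21.1 to 23.4 and 21.3 to 23.5 per aligned gigabase), and *Gli2* was lowest there. The factor between FPKM and scaled coverage was 4.0 to 4.05 for *Gli2* and 5.36 to 5.50 for *Sufu* but 1.0 for *Gli1*, so levels of different genes rank differently on the 2 scales while differences between genotypes within *Gli2*, *Sufu* and *Gli1* do not.

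The genes most like each called member were those with the smallest distance over the 4 libraries in log2(TPM + 1), centred on the WT mean. For *Ptch1* they were *1700018A04Rik* (distance 0.0922), *Tpd52l1* (0.143), *Fam162b* (0.229), *Gm12551* (0.246) and *Prnd* (0.256). *Tpd52l1*, at 6.43 and 6.56 TPM in Shh-/- and 27.4 and 26.6 TPM in WT, was the one expressed in both genotypes at several TPM, while *1700018A04Rik* and *Gm12551* were listed at 0 in both mutant pools. For *Hhip* they were *Gm5127* (0.490), *Eif3s6-ps4* (0.564), *Foxf2* (0.579), *Gm12445* (0.684) and *Gm43050* (0.882). Among these *Foxf2*, a forkhead factor of foregut mesenchyme, is itself in the list of HH targets below.

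Target genes outside the members had negative values throughout. All 12 of 12 tested had a log2FC below 0, also under each of the other scalings, with a median of -0.94, whereas 7077 of all 16972 genes did. The values ran from -3.97 to -0.03, so some targets hardly differed. An unadjusted limma p under 0.05 was reached by 8 of the 12, against 24.8% of all genes. Of these targets 2 were called, and neither with a pseudocount of 0.1, with no filter on TPM or with any 1 pool left out. As with *Hhip*, both passed the filter on mean TPM through their WT level alone. *Foxf2* was at 0.241 and 1.24 TPM in Shh-/- and 20.3 and 20.0 TPM in WT (log2FC -3.67, limma adjusted p = 0.0383). *Foxl1*, another mesenchymal forkhead gene, was at 0.462 and 0.941 against 8.43 and 7.26 TPM (log2FC -2.39, limma adjusted p = 0.0422). *Foxf1* had the most negative value, -3.97, but its mutant pools differed widely, at 0.848 and 9.57 TPM against 72.3 and 64.6 TPM in WT, and it was not called (SE 0.81, limma adjusted p = 0.0976).

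Of 5 further genes whose products bind HH ligands at the cell surface, 3 had a positive and 2 a negative log2FC under every scaling, with a median of 1.02, or 0.63 after the correction for length and GC content. *Gas1*, a membrane co-receptor that promotes ligand binding, was called, at 158 and 136 TPM in Shh-/- and 45.5 and 33.1 TPM in WT (log2FC 1.89, SE 0.18, limma adjusted p = 0.0422). That call was lost without the mean-variance trend in limma, with no filter on TPM and with any 1 pool left out. The related co-receptors *Boc* (log2FC 1.02, limma adjusted p = 0.0625) and *Cdon* (log2FC 1.03, limma adjusted p = 0.119) were not called. Of 9 genes for HH ligands and their release 6 were tested, 5 with a positive and 1 with a negative log2FC and a median of 0.72, or 0.38 after that correction. None of the 6 was called by limma, although 5 had an unadjusted p under 0.05, or 3 after the correction. *Disp1*, needed to release lipid-bearing ligand, had a log2FC of 1.21 (limma adjusted p = 0.0715), the ligand *Dhh* 0.92, the secreted carrier *Scube1* 0.87 and *Shh* -1.49.

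Over all 16972 genes 9895 had a positive log2FC, which is the background for the counts of sign here. Of 23 cytoplasmic and ciliary regulators, 20 had a positive log2FC, with a median of 0.26, but after the correction for length and GC content 15 did, with a median of 0.05. None of the 23 was called by limma, with 7 at an unadjusted p under 0.05. The widest were *Arrb1* at 0.65, *Itch* at -0.57, *Prkaca*, a catalytic subunit of protein kinase A, at 0.55 and *Arrb2* at 0.52. Of 12 genes of intraflagellar transport and the cilium, 7 had a positive log2FC, with a median of 0.03, and after median centring 4 did. None of the 12 was called by limma, with 2 at an unadjusted p under 0.05. The widest of these were *Dync2h1* at -0.58, *Ift172* at 0.54, *Mks1* at 0.47 and *Rpgrip1l* at -0.47. In all, 3 of 57 pathway genes outside the members were called, against 0.725% of all genes tested in either direction.

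**Figure D5:**
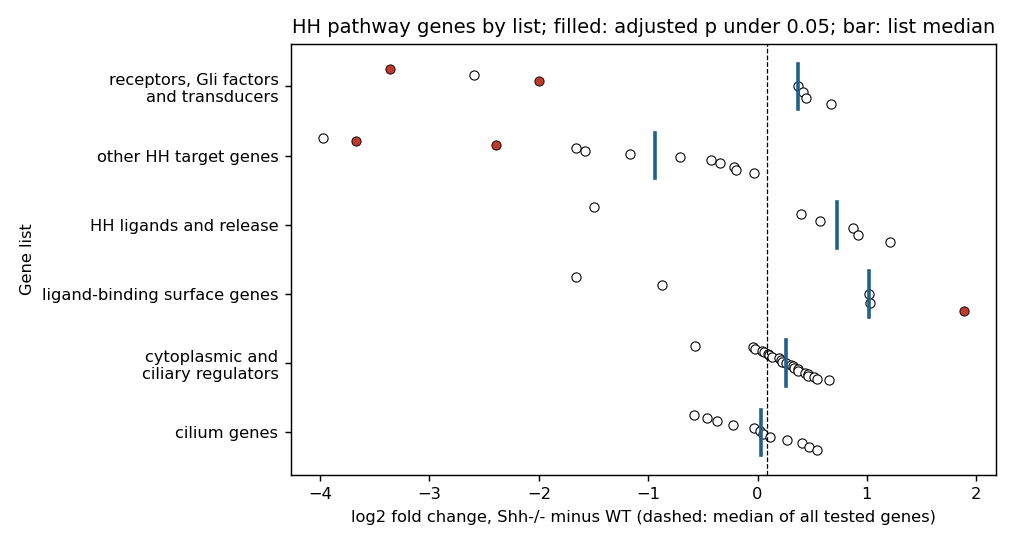
Log2 fold change (Shh-/- minus WT) of every tested gene in the 5 pathway lists and the members, 1 point per gene, filled where the limma adjusted p was under 0.05, with a bar at the list median and a dashed line at the median of all genes. All 12 target genes lie below 0, 20 of 23 cytoplasmic and ciliary regulators lie above it (15 after the correction for length and GC content), and cilium genes are centred near 0.03.

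Markers of the cell types that the tissue could hold differed between the groups as well. Summed over 8 foregut mesenchyme markers, of which 6 had a negative log2FC and 1 was called, the level was 142 and 171 TPM in Shh-/- and 272 and 259 TPM in WT. That list shares *Foxf1*, *Foxf2* and *Osr1* with the target list. In TPM its widest differences were those of *Foxf1*, at 0.848 and 9.57 against 72.3 and 64.6, and *Osr1*, at 11.5 and 21.8 against 56.4 and 43.3. Of its genes outside the target list, *Tbx5* (log2FC -2.23) and *Wnt2* (-1.44) were lower without overlap of the groups. *Barx1* (1.46) and *Pdgfra* (0.19) were higher without overlap, and the groups overlapped for *Tbx4* (-0.26). All 10 neuron markers had a positive log2FC, 5 of them called, with a sum of 735 and 825 TPM against 183 and 117 TPM, and so had all 8 muscle markers (7 after median centring), 2 of them called, with 143 and 175 TPM against 47.9 and 57.7 TPM. The called muscle markers were *Myh6* (log2FC 1.76, limma adjusted p = 0.0448) and *Myh7* (log2FC 2.13, limma adjusted p = 0.0422). For *Myod1* (log2FC 0.54) and *Myog* (log2FC 0.11) the groups overlapped. All 5 endothelial markers had a positive log2FC, 1 of them called (258 and 291 against 175 and 168 TPM). The sums overlapped between the groups for foregut epithelium (598 to 686 and 634 to 640 TPM), neural crest (119 to 153 and 104 to 129 TPM) and erythroid genes (10596 to 16164 and 14576 to 16771 TPM), with no gene of these lists called by limma and 4, 3 and 0 genes, in that order, at an unadjusted p under 0.05. Single genes of the epithelial list nevertheless went both ways, 4 of 9 lower and 3 higher without overlap of the groups, with *Foxa2* at -2.13 (limma adjusted p = 0.0602), *Nkx2-1* at -1.64 (limma adjusted p = 0.0715), *Foxa1* at -1.0 (limma adjusted p = 0.102) and *Krt8* at 0.44 (limma adjusted p = 0.128). Of 6 neural crest genes tested 5 were higher and 1 lower without overlap. Over all genes tested, 38% were higher and 22.7% lower without overlap, which is the background for these counts. Neural tube progenitor markers summed to 1.66 and 3.57 TPM in Shh-/- and 16.2 and 6.30 TPM in WT, with *Dbx1* at 0 in every library, and only 2 of them were tested. *Nkx6-1* carried the sum in WT (log2FC -2.62, limma adjusted p = 0.118) and *Pax6* went the other way (log2FC 0.88, limma adjusted p = 0.123). The part of these differences in the values of *Ptch1*, *Hhip* and *Gli1* was not tested.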

How the data were processed

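Larynx tissue from 2 Shh-/- and 2 WT pools was profiled with stranded, poly(A)-selected, single-end RNA-seq. The authors aligned reads to mm10 with HISAT2 2.1.0 and quantified genes with StringTie 1.3.6. The deposited tables hold, per gene, read coverage, FPKM and TPM. Coverage is the authors' signal with no scaling between libraries. FPKM is the authors' abundance scaled for gene length and library size, and TPM is the authors' FPKM rescaled within each library. FPKM was not a fixed multiple of coverage: 36.7 to 37.4% of genes above 1 FPKM shared the modal ratio, from which depth was estimated, and with no counts given no counting interval was computed. Nothing says whether pools within a genotype shared litters, so p-values measure only the spread between these pools.

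Rows of 1 gene ID were summed. limma 3.58.1 in R 4.3.3 (lmFit, eBayes with a mean-variance trend) was run on log2(TPM + 1) for 16972 genes whose TPM averaged 1 or more, and p-values were adjusted over all of them by the Benjamini-Hochberg method. The script was tested on simulated data. Ratios within libraries were compared by exact two-sided permutation. Promoters came from RefSeq (GRCm38.p6). The members and lists were chosen with earlier results of these data known. Genes named from a pathway list were those called and, where fewer than 4 were, those of largest absolute log2FC up to 4, and the 5 nearest genes of each called member. Marker lists are given by their counts and sums, and some genes of the lists are not reported here by name. Alternatives covered the pseudocount, the filter, the scaling, FPKM, variance settings, the threshold and leaving out each pool. Scaled coverage and the correction for transcript length and GC content were chosen after seeing the data.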

Additional observations from a re-analysis of the deposited data

How the results depend on the processing

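*Ptch1*, *Hhip* and *Gli1* kept a negative log2FC under all 17 alternatives, and the Gli shares and ratios kept their direction under all 7 run for them. With a pseudocount of 0.1 in place of 1, 69 genes were called in place of 123, 1 of the 7 members in place of 2, and 1 of the pathway genes in place of 3, and *Hhip* had a log2FC of -4.95 (limma adjusted p = 0.0598). With no filter on TPM (28524 genes tested) limma called no gene, although 5011 had an unadjusted p under 0.05, among them 6 members and 26 pathway genes, so 0 members and 0 pathway genes were called, with *Ptch1* at -2.0 and *Hhip* at -3.36 (limma adjusted p = 0.146 for each). At an adjusted p of 0.10, 858 genes, 3 members and 11 pathway genes were called, *Gli1* among them at a log2FC of -2.59 (limma adjusted p = 0.0715). With transcript length and GC content corrected for, an alternative added after seeing the data, *Smo* went to -0.00873 (limma adjusted p = 0.967), and the median of all genes went from 0.08 to -0.01. It was -0.05 after median centring.

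Leaving out 1 pool leaves a lone pool assumed to vary like the other group. Then 0 to 16 genes were called, 0 members and 0 pathway genes, with 2070 to 3761 genes, 3 to 6 members and 16 to 25 pathway genes at an unadjusted p under 0.05. Only the fit without WT pool 6 called any gene, 16 in all, and no fit without 1 pool called *Ptch1* or *Hhip*. *Ptch1* ranged from -2.04 to -1.95 and *Hhip* from -3.62 to -3.11 (limma adjusted p = 0.0699 to 0.132 for each), and *Gli1* from -3.18 to -2.01 (limma adjusted p = 0.0699 to 0.255). *Gli2* ranged from 0.41 to 0.94, *Gli3* from 0.33 to 0.41, *Smo* from 0.33 to 0.50 and *Sufu* from 0.32 to 0.57. No paired analysis was possible because the groups share no replicate number (1 and 2 against 4 and 6). A gene that was not called was not shown to be equal between genotypes.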

Other observations

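The Shh-/- pools differed from each other in some of the pathway's target genes and not in others. *Ptch1* was 1.07-fold higher in the second pool than in the first, while *Gli1* was 2.64-fold higher, *Osr1* 1.89-fold, *Foxf2* 5.15-fold and *Foxf1* 11.3-fold. Differences in log2(TPM + 1), second pool minus first, were ranked over all genes tested with their sign kept. That for *Gli1*, 1.17, exceeded the signed difference of 98.8% of genes, and that for *Foxf1*, 2.52, exceeded 99.9%. *Ptch1*, at 0.09, exceeded 70.8%, a share that includes every gene lower in the second pool. Its rank therefore does not mean that *Ptch1* differed by more than most genes. Of the 12 target genes outside the members 8 were higher in the second pool, against 41.9% of all genes tested. The foregut mesenchyme genes *Wnt2* (0.604 and 5.04 TPM) and *Tbx5* (1.22 and 4.71 TPM) lay higher in the second pool too, and in WT they were at 8.37 and 6.58 TPM and at 19.4 and 12.6 TPM. Other genes of that marker list differed less between the mutant pools. *Tbx4* was at 2.41 and 3.50 TPM, *Barx1* at 18.9 and 20.5 TPM, and *Pdgfra* at 106 and 105 TPM. The genes named here were chosen after their values were seen, and with 1 pool on each side the differences have no replicate check. The first pool was the shallower library, at 1372 against 3128 megabases of alignment, and the part of depth or tissue composition in these differences was not tested.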
